A study of Bos taurus with 61 samples.

Results

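The oocyte genes described here were 10 genes whose transcripts mark the female germ cell: ZP2, ZP3, ZP4, FIGLA, NOBOX, GDF9, BMP15, MOS, NLRP5 and DAZL. They were found among 24616 bovine genes by the gene symbol or UniProt entry name given beside each gene, which placed 6 of them, and by the symbol paired with an Ensembl identifier in a supplementary table of the study, which placed the other 4 (ZP3, FIGLA, MOS and DAZL). Each of the 10 matched 1 gene. The values came from the transcriptomes of 8 Brangus heifers, a Brahman by Angus composite breed, sequenced as 61 libraries to follow puberty across the reproductive axis and metabolic tissues. Of these heifers, 4 were POST, past puberty by circulating progesterone and slaughtered in the mid-luteal phase, and 4 were PRE, without a luteal rise in progesterone and slaughtered about when the first of the cohort reached puberty. POST heifers were therefore also older, heavier and sampled on later dates, and stage, age and date cannot be told apart. The 8 tissues were ovary, hypothalamus, pituitary gland, uterus, endometrium, subcutaneous fat, liver and longissimus dorsi muscle, each as whole tissue (the study's methods place the fat in the abdominal cavity, the labels under the skin), and the POST ovary was the one that bore the corpus luteum whereas the PRE ovary was the larger of the pair.

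An oocyte grows inside a follicle and stores RNA for the first divisions of the embryo. Early in this growth, germ-cell transcription factors switch on the genes of the zona pellucida, the glycoprotein coat that sperm must cross, and the oocyte secretes growth factors that act on the granulosa cells around it. Because a few large cells sit in a mass of follicular, stromal and luteal tissue, transcripts of oocytes are dilute in RNA of a whole ovary. In such bulk RNA, fewer oocytes and less RNA per oocyte cannot be told apart.

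Only the mean of each tissue and stage was used, as mean unique reads per library and as mean RPKM (reads scaled to exon length and to the library total), so there is no spread between heifers, no test and no p-value for any value below. The summed mean reads per library were fewest in PRE endometrium (17109554) and most in PRE fat (27132722), with 23512141 in POST ovary and 20440401 in PRE ovary. The fractions of the means fit 3 libraries in each hypothalamus group, where 4 are labelled, and 4 libraries in PRE pituitary gland, where 3 are labelled. Reads were summed over the libraries that the fractions give, and intervals on reads are exact 95% intervals that cover counting error only. CPM here is the mean unique reads of a gene as counts scaled to the summed mean reads of its group, and a ratio of CPM is given with such an interval in parentheses. Differences are log2 of POST minus log2 of PRE after adding 0.2 to each mean RPKM, which understates the change of low genes. A gene was compared when its mean RPKM reached 0.2 in POST or PRE, the level the study took for expression, and was counted as higher or lower at 4-fold or more.

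In the ovary, all 10 oocyte genes were detected in both stages, at low levels. The sum of their mean RPKM was 5.84 in POST and 8.14 in PRE. The highest was ZP2 in POST (1.66 RPKM) and ZP3 in PRE (1.97 RPKM), and the lowest were MOS in POST (0.084 RPKM) and NLRP5 in PRE (0.299 RPKM). A mean RPKM of 1 was reached by 1 gene in POST and 3 in PRE, and one of 0.2 by 8 genes in POST and all 10 in PRE. ZP2 in POST lay above 50.6% of all genes in the same ovaries and MOS above 34.6%.

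None of the 10 was counted at 4-fold with 0.2 added. Of 15540 genes compared in the ovary, 1.38% were counted as higher in POST and 0.56% as lower. With 0.2 added, FIGLA, GDF9, MOS, NLRP5 and DAZL were too low in both stages to be counted at any difference. Without it, the ratio of POST to PRE was 0.214 for FIGLA by RPKM and 0.232 for MOS by CPM. Of the 10 differences, 7 were below 0 and 3 above, with a median of -0.44 beside -0.05 over all genes compared, of which 57.1% were below 0. At 2-fold, FIGLA was lower in POST and no other, beside 2.42% of all genes. The read counts left the ratio of POST to PRE CPM below 1 throughout its interval for ZP3, NOBOX, BMP15 and MOS, and the interval held 1 for the other 6. These intervals do not contain the differences between heifers. The share of all genes in the ovary whose interval leaves out 1 was not computed, so this count has no reference.

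**Figure D1:**
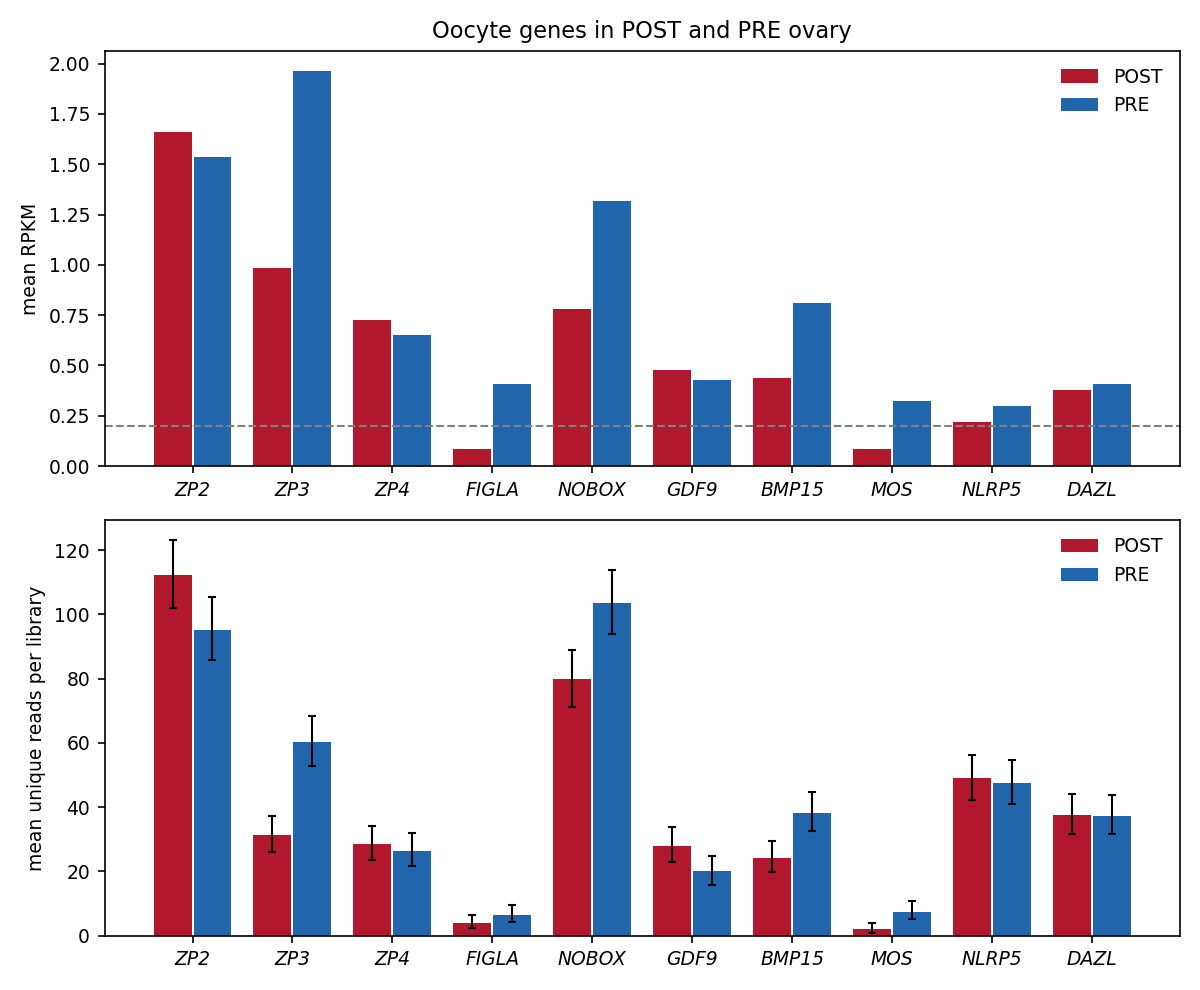
Mean RPKM (top) and mean unique reads per library (bottom) of each oocyte gene in POST (red, left) and PRE (blue, right) ovary, with exact 95% Poisson intervals on the reads for counting error only and a dashed line at 0.2 RPKM. ZP3, NOBOX and BMP15 had fewer reads in POST than in PRE ovary, ZP2, ZP4, NLRP5 and DAZL had similar numbers, and MOS and FIGLA had fewer than 10 reads per library in each.

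The coat genes were not alike in their differences. ZP2 (chromosome 25, 19228387 to 19240185 of UMD3.1), which encodes a zona glycoprotein that in mice carries the site where sperm bind, had 1.66 RPKM in POST and 1.54 RPKM in PRE ovary. Its reads were 112.25 per library in POST and 95.25 in PRE, the highest in POST of the 10 genes, and the ratio of CPM was 1.02 (0.892 to 1.18). ZP3 (chromosome 25, 34960635 to 34968376), which encodes the zona glycoprotein that pairs with ZP2 in the filaments of the coat, had 0.986 RPKM in POST and 1.97 RPKM in PRE, a difference of -0.87. ZP3 reads were 31.25 per library in POST and 60.25 in PRE, and the ratio was 0.451 (0.360 to 0.562). ZP4 (chromosome 28, 10664110 to 10671377), a coat protein of the bovine zona that mice lack, had 0.728 RPKM in POST and 0.649 RPKM in PRE. ZP4 reads were 28.5 and 26.5 per library in POST and PRE, and the ratio of CPM was 0.935 (0.711 to 1.23). The sign of its small difference therefore depended on whether RPKM or CPM was used. Within the ovary, ZP2 RPKM was 1.68 times that of ZP3 in POST and 0.782 times in PRE, while ZP2 over ZP4 was 2.28 in POST and 2.37 in PRE.

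The transcription factors were both lower in POST by their means, FIGLA on few reads and NOBOX on many. FIGLA (chromosome 11, 13612910 to 13619093), a helix-loop-helix factor that in mice activates the zona genes, had 0.087 RPKM in POST and 0.406 RPKM in PRE ovary, a difference of -1.08. By RPKM with 0.2 added this was the largest in size of the 10. By CPM, also with 0.2 added, it was -0.48, smaller in size than ZP3 at -1.04, MOS at -0.99, BMP15 at -0.75 and NOBOX at -0.55. Without an added amount the lowest ratio of CPM was that of MOS, at 0.232. FIGLA rested on 4 reads per library in POST and 6.5 in PRE, or 16 and 26 reads summed, and the ratio of CPM was 0.535 (0.268 to 1.04) where the ratio of RPKM was 0.214. NOBOX (chromosome 4, 108488052 to 108493401), a homeobox factor that in mice is needed for follicles to grow past the primordial stage, had 0.779 RPKM in POST and 1.31 RPKM in PRE, a difference of -0.63. NOBOX reads were 79.75 per library in POST and 103.5 in PRE, and the ratio was 0.670 (0.577 to 0.777).

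The growth factors that the oocyte secretes differed from each other. GDF9 (chromosome 7, 46064180 to 46067119) had 0.479 RPKM in POST and 0.429 RPKM in PRE ovary on 28 and 20 reads per library, and the ratio of CPM was 1.22 (0.905 to 1.64). BMP15 (chromosome X, 93971184 to 93977809), its close relative with which it forms dimers, had 0.440 RPKM in POST and 0.812 RPKM in PRE on 24.25 and 38.25 reads per library. The BMP15 difference was -0.66 and its ratio of CPM 0.551 (0.423 to 0.715). The ratio of GDF9 to BMP15 in the ovary was 1.09 in POST and 0.528 in PRE by RPKM, and 1.15 in POST and 0.523 in PRE by reads.

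Of the genes for maturation and maternal supply, MOS stood lower in POST and the others were near equal. MOS (chromosome 14, 24975950 to 24976948), the kinase that holds the egg at metaphase of the second meiotic division, had 0.084 RPKM in POST and 0.322 RPKM in PRE ovary on 2 and 7.5 reads per library. With 8 reads summed in POST and 30 in PRE, its ratio of CPM was 0.232 (0.0918 to 0.518). NLRP5 (chromosome 18, 63668487 to 63683298), a protein of the maternal complex beneath the oocyte surface that mouse embryos need, had 0.218 RPKM in POST and 0.299 RPKM in PRE on 49 and 47.5 reads per library. DAZL (chromosome 1, 155383458 to 155406442), an RNA-binding protein of germ cells in both sexes, had 0.379 RPKM in POST and 0.409 RPKM in PRE on 37.5 and 37.25 reads per library. The ratios of CPM were 0.897 (0.731 to 1.10) for NLRP5 and 0.875 (0.693 to 1.11) for DAZL.

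**Figure D2:**
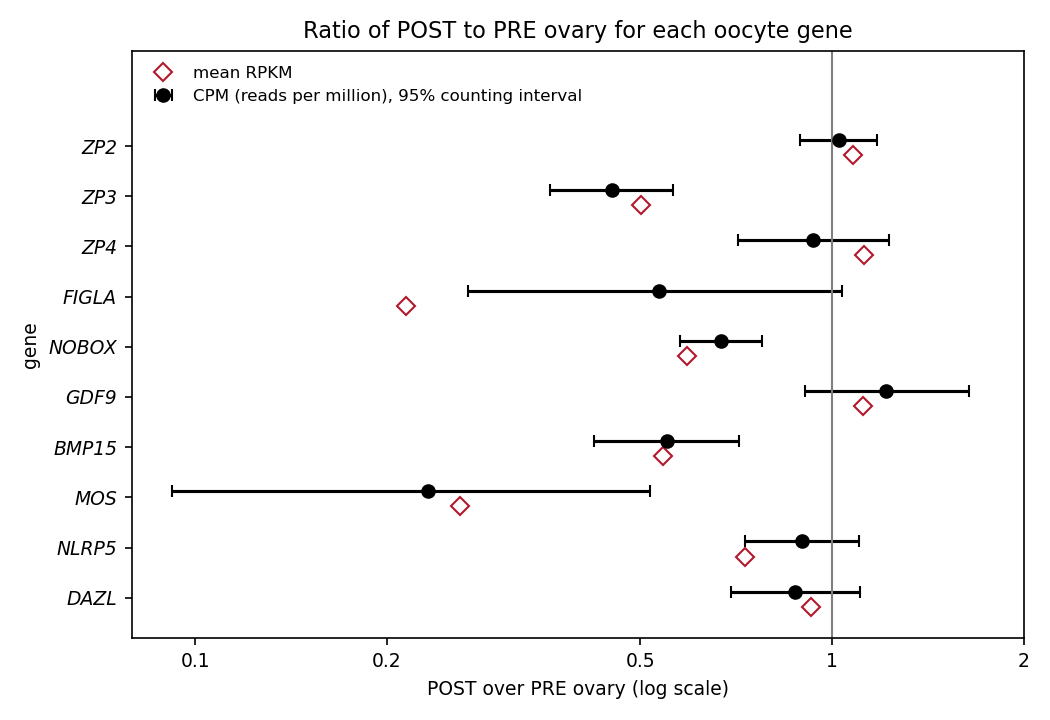
Ratio of POST to PRE ovary for each oocyte gene on a log axis, from CPM (black circles, with exact 95% counting intervals) and from mean RPKM (open diamonds). The intervals of ZP3, NOBOX, BMP15 and MOS lie below 1, and the RPKM ratio of FIGLA (0.214) lies outside the interval of its reads (0.268 to 1.04).

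The ovaries of the stages differed in other cell types, and the POST ovary mean also held transcripts of genes listed for other organs. Of 8 genes listed for luteal cells, 6 were found and compared, all 6 lay above 0 with a median of 2.95, and 4 were counted as higher in POST. These 4 were STAR (652 RPKM in POST, 35.2 in PRE), which carries cholesterol into mitochondria, CYP11A1 (660 in POST, 127 in PRE), which makes pregnenolone, HSD3B (797 in POST, 69.5 in PRE), which makes progesterone and has close copies that could share reads, and OXT (275 in POST, 2.31 in PRE), the oxytocin gene. All 7 listed pituitary hormone genes were counted as higher in POST ovary, with a summed RPKM of 30261 in POST and 154 in PRE. They took 4.41% of the summed reads in POST ovary and 0.0164% in PRE. Their RPKM in POST ovary was 8.96% (POMC) to 46.7% (CGA) of that in POST pituitary gland. CGA, the common gonadotropin subunit, had 2079 RPKM in POST and 3.96 in PRE, GH1 11453 in POST and 30.4 in PRE, PRL 15908 in POST and 106 in PRE, and TSHB 85.6 in POST and 0.163 in PRE. Of 6 neuronal genes 3 were counted as higher in POST (SNAP25, NEFL and NEFM), STMN2 lay at 1.01, and SYT1 and GAP43 lay below 0 at -0.35 and -0.25. Of 9 liver genes 8 were compared, all above 0 with a median of 1.19 and none past 4-fold, and the summed RPKM of the list was 795 in POST and 336 in PRE ovary. APOA1 made up most of that sum, with 736 RPKM in POST and 314 in PRE ovary, beside 321 in POST liver. ALB, the albumin gene, had 36.1 RPKM in POST and 10.96 in PRE ovary.

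The part of these transcripts in the oocyte gene differences was not tested. In POST pituitary gland itself FIGLA and MOS were listed at 0, and ZP3 and ZP4 had 0.015 and 0.012 RPKM, whereas NOBOX had 0.568, GDF9 0.484 and NLRP5 0.247 RPKM there. Leaving the pituitary hormone reads out of the POST total, an alternative chosen after seeing the data, rescaled all genes alike and so covers the share of the library they took and not other RNA that may have come with them. ZP3 was then at -0.81, NOBOX at -0.58, BMP15 at -0.62 and MOS at -0.86, and the median of all genes at 0.02.

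Of 11 granulosa genes 9 were found and compared, none reached 4-fold, and the median was 0.05 (4 below 0, 5 above). CYP17A1 and INSL3, the markers of theca cells, had differences of 0.13 and -0.38. Of 13 receptors and SMAD proteins listed for the GDF9 and BMP15 signals, 8 were found and compared. None was past 4-fold, and the median was -0.03 (-0.37 to 0.66). The receptors BMPR2, BMPR1A, BMPR1B and ACVR1 were not found by name, so TGFBR1 and ACVR1B were the only receptors compared. Of 9 genes of cumulus expansion 4 were compared, and EREG, an EGF receptor ligand, was the 1 counted as higher (1.91 RPKM in POST, 0.094 in PRE), while PTX3, a protein of the cumulus matrix, had a difference of -0.80.

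Other genes listed for oocytes and meiosis likewise held none counted at 4-fold with 0.2 added, but neither list stands for germ cells alone. Of 41 further oocyte genes 28 were found and 18 compared, none was counted in either direction, and the median was -0.20 with 10 below 0 and 8 above. Of these, OOSP1, ZAR1, H1FOO, KPNA7, NLRP8, NLRP14, BTG4, ASTL and MAEL were too low in both stages to be counted at any difference. Of those high enough to be counted, TLE6, PATL2, UCHL1 and CD9 (above 0) and OOEP and AURKC (below 0) were higher in another tissue than in ovary. ZAR1L, KIT and BMP6 were highest in POST ovary. The 4 with the largest differences, named after their values were seen, were ASTL, the protease that hardens the zona after fertilization (0.168 RPKM in POST, 0.472 in PRE), OOSP1, an oocyte secreted protein (0.084 in POST, 0.310 in PRE), BTG4, which clears maternal RNA in mice (0.132 in POST, 0.381 in PRE), and ZAR1, an RNA-binding maternal factor (0.146 in POST, 0.373 in PRE). All 4 were lower in POST by mean RPKM and below 0.5 RPKM in each stage, but BTG4 had more reads per library in POST (55.5) than in PRE (44.25). Of 19 meiosis genes 10 were compared with none past 4-fold and a median of -0.14. Some of these were higher in another tissue than in ovary, such as SYCP3, REC8 and CCNB1, while others, such as CDK1, AURKA and CDC20, were not. TNP1 and PRM1, which pack DNA in sperm, had no read in either ovary group.

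**Figure D3:**
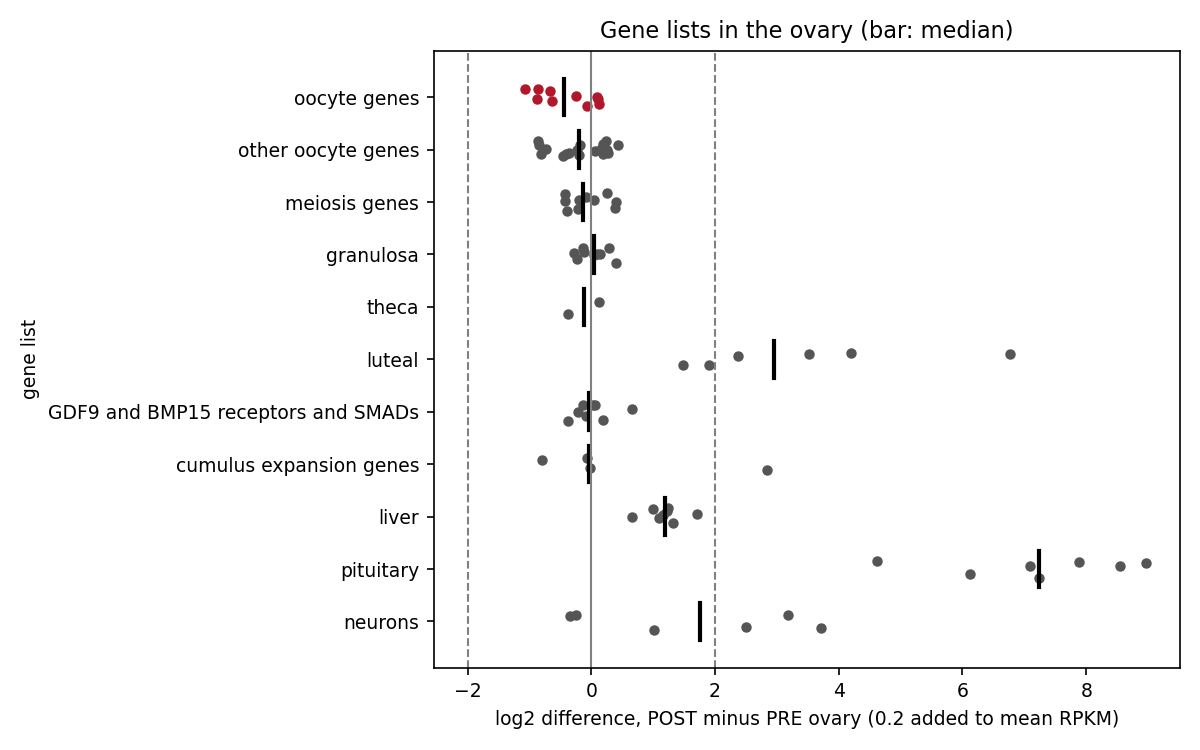
Log2 difference of POST minus PRE ovary (0.2 added to mean RPKM) for each compared gene of the oocyte genes (red) and of 10 companion lists (grey), with the median of each as a bar and dashed lines at 4-fold. The oocyte genes span -1.08 to 0.13. The lists of other oocyte, meiosis, granulosa and receptor genes lie around 0, and the pituitary and luteal lists have medians of 7.23 and 2.95.

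Across tissues, the 10 genes ranged from those with nearly all of their RPKM in the ovary to those found in most tissues. By mean RPKM, the ovary was the highest of the 8 tissues for 7 genes in POST and 8 in PRE. The share of all genes that were highest in the ovary was not computed, so these counts have no reference. By CPM, FIGLA in POST was higher in endometrium (0.307) than in ovary (0.170). BMP15 in POST was likewise higher by CPM in liver (1.25) than in ovary (1.03). At 4-fold over the highest of the other 7 tissues, with 0.2 added and an ovary level of at least 0.2 RPKM, 1 gene was counted in POST (ZP4) and 1 in PRE (ZP3), where the same rule counted 1.21% of 15160 genes in POST and 0.704% of 15054 in PRE. Because the ovary levels were near the amount added, the count moved with that choice. The summed RPKM of the 10 was 5.84 in POST and 8.14 in PRE ovary, beside 2.35 in POST and 3.94 in PRE hypothalamus, and 0.477 in POST and 0.288 in PRE muscle.

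MOS, ZP4 and FIGLA were at or near 0 outside the ovary. MOS was listed at 0 in all 14 other groups, with 1 read in all of them together. ZP4 was listed at 0 in 11 of these 14 groups and reached at most 0.014 RPKM in PRE pituitary gland, and the ovary held 97.6% of its RPKM summed over tissues in POST and 97.9% in PRE. FIGLA was listed at 0 in 11 of 14 groups and reached at most 0.024 RPKM in POST hypothalamus. FIGLA reads were nevertheless spread over all tissues, from 1.25 to 6.33 per library outside the ovary, beside 4 in POST and 6.5 in PRE ovary.

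By RPKM, ZP3, ZP2, BMP15 and DAZL were highest in the ovary with lower levels elsewhere. ZP3 had 0.241 RPKM in POST and 0.195 in PRE hypothalamus, its next tissue, so that POST ovary stood 4.09 times and PRE ovary 10.1 times above it. ZP2 had 0.432 RPKM in POST and 0.369 in PRE endometrium and 0.249 in POST and 0.208 in PRE liver, and the ovary held 63.6% of its summed RPKM in POST and 57.8% in PRE. BMP15 came next in endometrium in POST (0.149 RPKM) and in uterus in PRE (0.179 RPKM). DAZL came next in uterus in POST (0.172 RPKM) and in liver in PRE (0.060 RPKM). DAZL in uterus had 23 reads per library in POST, beside 5.75 reads and 0.00716 RPKM in PRE, but neither stage reached 0.2 RPKM.

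NOBOX, GDF9 and NLRP5 were not marked by the ovary. NOBOX was highest in the hypothalamus, with 1.55 RPKM in POST and 3.17 in PRE on 144 and 293 reads per library, and it reached 0.2 RPKM in 12 of the 14 groups outside the ovary. The lowest NOBOX levels were in muscle (0.114 RPKM in POST, 0.029 in PRE). GDF9 stayed within 0.159 and 0.530 RPKM in all 16 groups, and its highest tissue was liver, with 0.530 RPKM in POST and 0.498 in PRE on 33.5 and 24.25 reads per library. Liver and pituitary gland were above the ovary for GDF9 in both stages, and the ovary to liver ratio of CPM was 0.895 (0.690 to 1.16) in POST and 0.897 (0.659 to 1.22) in PRE, so that these neighbours in the order did not differ beyond counting error. NLRP5 in POST was highest in endometrium (0.254 RPKM), followed by pituitary gland (0.247 RPKM) and ovary (0.218 RPKM). In PRE NLRP5 was highest by RPKM in ovary (0.299), followed by pituitary gland (0.115). On 47.5 and 44 reads per library, the PRE ratio of CPM of ovary to pituitary gland was 1.08 (0.871 to 1.33). None of the 10 genes overlapped another gene in the coordinates used. The nearest to GDF9 lay 1987 bases away and the nearest to NLRP5 4255 bases away.

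**Figure D4:**
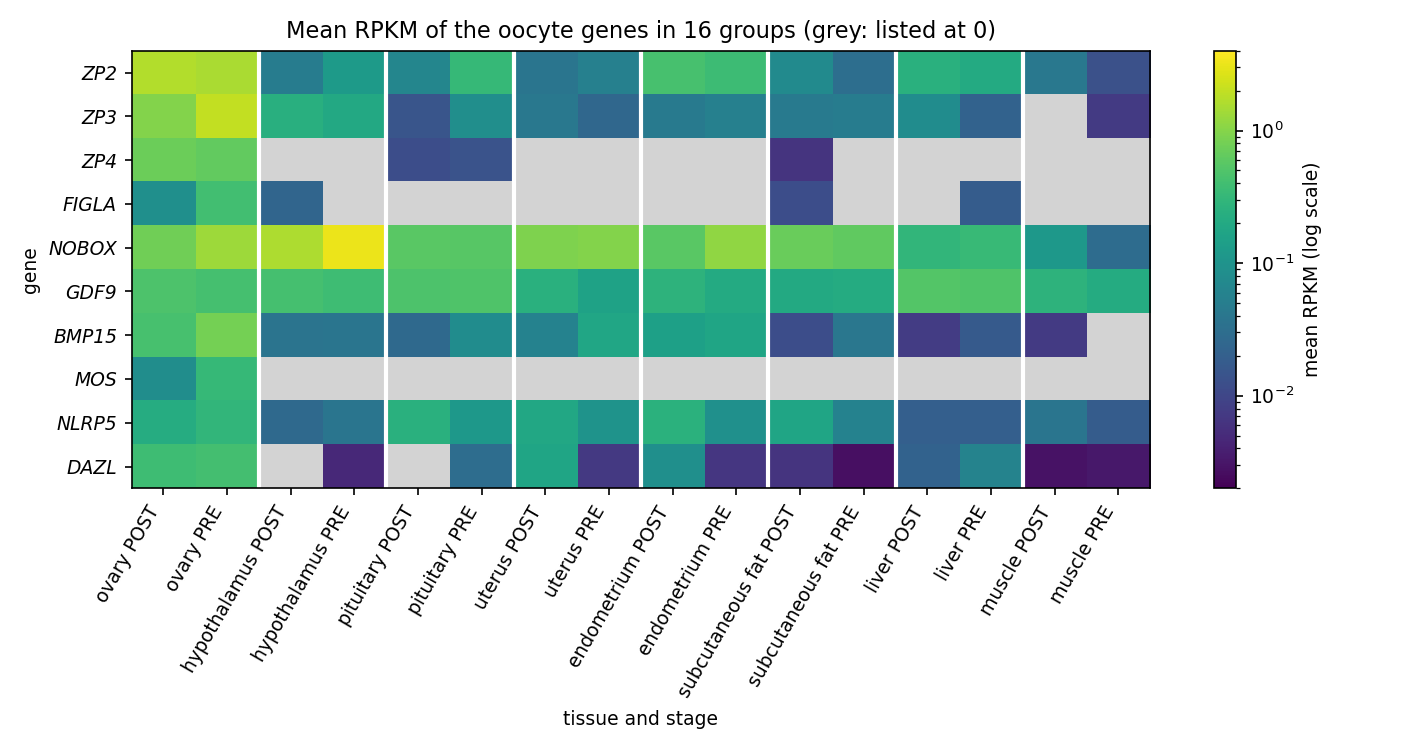
Mean RPKM of the 10 oocyte genes (rows) in 8 tissues (columns, POST left of PRE in each) on a log colour scale, with grey for groups listed at 0. MOS is grey in all 14 groups outside the ovary, ZP4 and FIGLA in 11 each, and NOBOX and GDF9 are coloured in all 16 groups.

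Outside the ovary, 19 of 70 gene and tissue pairs reached 0.2 RPKM and none was counted at 4-fold between the stages. With 0.2 added, only NOBOX in hypothalamus, uterus, endometrium and fat was high enough to be counted at any difference. Without it, the ratio of RPKM for ZP2 in pituitary gland was 0.205. The rule counted 6.54% of all genes compared in endometrium, 2.94% in uterus, 2.55% in pituitary gland, 2.08% in fat, 0.729% in muscle, 0.416% in hypothalamus and 0.0812% in liver. For 6 of the 19 pairs the interval of the ratio of CPM left out 1. Of these, ZP2 in pituitary gland reached 0.2 RPKM only in PRE, and NLRP5 in endometrium and pituitary gland only in POST. A filter met through either stage favours pairs that differ. Pairs left out could also have intervals without 1, such as DAZL (3.42) and BMP15 (0.278) in uterus, and no share over all genes was computed. ZP2 in pituitary gland had 0.066 RPKM in POST and 0.322 in PRE on 6 and 22.25 reads per library, a ratio of 0.257 (0.157 to 0.407). The PRE pituitary mean fits 4 libraries where 3 are labelled, and the part of this in the pituitary differences was not tested. NOBOX in hypothalamus had a difference of -0.95 and a ratio of 0.453 (0.403 to 0.509), and in endometrium 0.568 RPKM in POST and 1.13 in PRE, a ratio of 0.543 (0.444 to 0.662). According to the methods, a pair of hypothalamus samples were sequenced earlier, on another instrument and with shorter reads. Their stage is not given in the sources used here, and their part in the NOBOX difference was not tested. NOBOX in fat had 0.699 RPKM in POST and 0.617 in PRE, a ratio of 1.23 (1.04 to 1.45), so the gene did not run one way across tissues.

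NLRP5 made up the other 2 of these 6 pairs, and its reads were more numerous in POST than in PRE in each of the 8 tissues, but not its RPKM, which was lower in POST hypothalamus (0.027, against 0.038 in PRE) and equal in liver (0.020 in each). These reads are not scaled to depth, and by CPM NLRP5 was lower in POST ovary, at a ratio of 0.897 (0.731 to 1.10). The interval also held 1 in hypothalamus, where the ratio was 1.04 (0.630 to 1.71). In endometrium NLRP5 had 0.254 RPKM in POST and 0.090 in PRE on 81 and 27 reads per library, a ratio of 2.49 (1.93 to 3.24). In pituitary gland it had 0.247 RPKM in POST and 0.115 in PRE on 84.75 and 44 reads per library, a ratio of 1.84 (1.53 to 2.22). In uterus and fat, where NLRP5 stayed under 0.2 RPKM, it had 74.5 and 59.5 reads per library in POST, beside 28.25 and 32.5 in PRE. In the ovary the reads were nearly equal (49 in POST, 47.5 in PRE) and the RPKM was lower in POST.

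Reads and RPKM did not stand in a fixed proportion, which limits how far a low RPKM can be read as no transcript. GDF9 had 2.19 to 2.51 CPM for each RPKM in all 16 groups. For BMP15 the figure ran from 2.30 to 163, because liver had 31.5 reads per library in POST and 25 in PRE but only 0.00768 RPKM in POST and 0.017 in PRE. By reads, BMP15 was therefore higher in POST liver than in POST ovary (24.25), and by RPKM the POST ovary was higher. DAZL ran from 4.21 to 65.7 CPM for each RPKM. NLRP5 ran from 7.77 to 28.3 and NOBOX from 3.85 to 7.57. Of the 140 values outside the ovary, 40 were listed at 0 RPKM and 24 of those 40 had reads. RPKM counts exon reads by its definition, and where within each gene the other unique reads lay was not tested.

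The profiles over the 16 groups were compared by Pearson's r on log2 of RPKM plus 0.2, as a description, since the groups come from the same 8 heifers and share the ovary as their extreme. FIGLA and MOS were most alike (r = 0.99) and ZP3 and ZP4 next (0.93), while GDF9 had r = 0.03 with NLRP5, 0.06 with NOBOX and 0.11 with BMP15. Among 8255 named genes with an ovary level of 0.2 RPKM or more, the 3 nearest to ZP4 were MBOAT4, FSHR and SLC28A2 (r of 0.996 to 0.998), where FSHR is the follicle-stimulating hormone receptor of granulosa cells. Among the nearest to ZP3 were SERPINB2 (0.971) and EIF4E1B (0.970), and nearest to ZP2 were WDR86, CHI3L2 and ATP4B (0.881 to 0.918). Nearest to MOS were ADAD1, GHRL and TRIM50 (0.971 to 0.988), and the same 3 were nearest to FIGLA (0.955 to 0.972). BMP15 was nearest to GPX6, SLC6A19 and DEPDC1B (0.937 to 0.971), and DAZL to LRRN4, SLC30A2 and NLRP14 (0.921 to 0.951), the last a further gene of the oocyte list. NOBOX had SPRED1 (0.944) and STRN (0.938) among its nearest, and NLRP5 was nearest to BRPF3, RBM7 and KIAA1522 (0.875 to 0.922), and GDF9 to GPRIN3, PROX1 and BANK1 (0.796 to 0.863).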

How the data were processed

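RNA of 8 tissues from 8 heifers was sequenced from TruSeq libraries, a pair of hypothalamus samples earlier and with shorter reads than the others. The authors aligned them to the UMD3.1 assembly and deposited, for each gene and each of the 16 groups, a mean of unique read counts and a mean RPKM; the aligner version is not given in the sources used here. Both were used as deposited, with coordinates as given. Values per library were not analysed here, so the planned tests were replaced by a rule of size: 4-fold on log2(RPKM + 0.2), at a mean RPKM of at least 0.2. Library numbers were recovered from the fractions of the means. Intervals were exact Poisson for reads and exact binomial (Clopper-Pearson) for ratios, at 95%, from scipy 1.17.1 in Python 3.11.15. They cover counting error only, since PCR reads are not independent molecules, and heifer spread is unknown.

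Named genes were the 10 oocyte genes, the genes of each list past 4-fold in ovary (the 4 largest where more than 5), and the 3 genes most alike in profile, some of which are not reported here. The members, the lists, some markers of which were not found by name, and 11 UniProt entries paired by hand with symbols, were chosen with earlier results of these data known. Alternatives were other amounts added (0.05 and 1), CPM computed here from the reads, no filter on low values, a 2-fold rule, centring on all genes, other references for the ovary, summing rows of 1 name, and the POST ovary total without pituitary hormone reads.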

Additional observations from a re-analysis of the deposited data

How the results depend on the processing

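Without values per library, leaving out each replicate could not be run. No paired analysis was possible because the values used were means of each tissue and stage and carry no heifer number. The count of oocyte genes higher in POST ovary was 0 under each alternative run, and the count lower in POST became 1 (FIGLA) under the 2-fold rule and stayed 0 under the others. Of the 10 differences in ovary 7 or 8 were below 0 under every alternative, and ZP4 changed sign, at -0.08 with CPM and up to 0.18 otherwise. The amount added moved the low genes most: with 0.05 and 1 added, FIGLA was at -1.73 and -0.37, MOS at -1.47 and -0.29, and NOBOX at -0.72 and -0.38. The ratio of GDF9 to BMP15 kept its side of 1 in each stage by reads, the only alternative run for it. In POST it lay near 1, on 112 and 97 summed reads, and no interval was computed for it.

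The count of genes 4-fold above the other 7 tissues, 1 in each stage, depended on the choices. In POST it was 0 with 1 added to RPKM, 3 under the 2-fold rule, 3 against the median of the other tissues and 2 on the mean of both stages. In PRE it was 5 with 0.05 added, 0 with 1 added, 2 with CPM, 7 under the 2-fold rule, 4 against the median of the other tissues and 2 on the mean of both stages. The shares of all genes under these changed rules were not computed, so the changed counts have no reference. The amount added is near the ovary levels, and a larger one shrinks their folds. Depth limits FIGLA (16 reads summed in POST, 26 in PRE) and MOS (8 in POST, 30 in PRE) most.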
